A study of Homo sapiens with 6 samples.

Results

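The YAP/TEAD genes described here are YAP1, WWTR1, TEAD1, TEAD4, ANKRD1, CTGF, CYR61, AMOTL2, LATS2 and AXL. They were chosen by name, with earlier results of these data known. Each matched 1 of the 27234 rows of the gene table, a row giving the span of 1 transcript in hg38 and the reads over its exons. All 10 passed the filter on low counts and were among the 9420 genes tested. The cells were A673, a human Ewing sarcoma line carrying the EWS-FLI1 fusion, grown with 10% fetal bovine serum. One group received siRNA oligonucleotides against FLI1 (siFLI1, 3 libraries) and the other a scrambled siRNA (siControl, 3 libraries), and polyadenylated RNA was taken 48 h after transfection for libraries of transcript 3' ends. Both groups carry the fusion, the study used 1 cell line, and where in FLI1 the siRNA binds is not stated in the labels. Cells were transfected in triplicate, with nothing said of independent cultures. The p-values therefore reflect only how much these libraries vary, which may be technical.

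YAP1 and WWTR1 (the gene of the protein TAZ) encode paired transcriptional coactivators that bind no DNA themselves and act through the TEAD transcription factors. The Hippo kinases, of which LATS2 is the last in the chain, phosphorylate YAP and TAZ, which holds them out of the nucleus. Cell spreading, actin tension and low density favour nuclear YAP and TAZ, and ANKRD1, CTGF and CYR61 are the targets most often read as a measure of their activity. Much of this control acts on the proteins, which RNA counts do not measure. In Ewing sarcoma cells, EWS-FLI1 has been described as interfering with transcription by YAP/TEAD and by the actin-regulated cofactor MRTF.

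TEAD proteins recognise the letters GGAATG, so the promoter windows of members with a match are shown before the values. Windows run from 250 bases before to 50 bases after the start of the gene. The set of RefSeq windows used (GRCh38.p14) held 7 of the 10 members and lacked TEAD1, TEAD4 and CYR61. Where a gene had several windows, the one nearest the start of its row in the gene table was taken. Of the 7, ANKRD1, CTGF, YAP1 and LATS2 held GGAATG on either strand, that is GGAATG or CATTCC, and WWTR1, AMOTL2 and AXL did not. The 4 windows with a match are written on the strand of the gene, 5' to 3', with each match in capitals.
ANKRD1 (chr10:90921038-90921337, minus strand): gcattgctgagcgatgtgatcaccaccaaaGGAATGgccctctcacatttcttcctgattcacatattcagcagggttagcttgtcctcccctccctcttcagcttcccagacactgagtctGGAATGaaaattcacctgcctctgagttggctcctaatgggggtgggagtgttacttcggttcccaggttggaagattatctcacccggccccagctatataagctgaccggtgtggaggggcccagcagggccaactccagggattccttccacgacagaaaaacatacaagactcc
CTGF (chr6:131951323-131951622, minus strand): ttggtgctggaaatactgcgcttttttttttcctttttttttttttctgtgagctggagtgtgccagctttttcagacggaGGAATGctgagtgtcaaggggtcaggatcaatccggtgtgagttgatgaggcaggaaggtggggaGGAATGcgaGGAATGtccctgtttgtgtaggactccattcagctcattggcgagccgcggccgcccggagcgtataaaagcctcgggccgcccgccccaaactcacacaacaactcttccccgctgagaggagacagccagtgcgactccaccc
YAP1 (chr11:102110197-102110496, plus strand): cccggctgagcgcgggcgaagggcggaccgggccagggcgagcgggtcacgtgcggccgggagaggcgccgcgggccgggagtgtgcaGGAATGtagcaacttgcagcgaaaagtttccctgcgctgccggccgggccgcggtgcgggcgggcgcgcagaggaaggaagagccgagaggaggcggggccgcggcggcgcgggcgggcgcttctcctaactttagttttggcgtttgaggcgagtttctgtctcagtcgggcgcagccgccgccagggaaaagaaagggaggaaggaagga
LATS2 (chr13:21061537-21061836, minus strand): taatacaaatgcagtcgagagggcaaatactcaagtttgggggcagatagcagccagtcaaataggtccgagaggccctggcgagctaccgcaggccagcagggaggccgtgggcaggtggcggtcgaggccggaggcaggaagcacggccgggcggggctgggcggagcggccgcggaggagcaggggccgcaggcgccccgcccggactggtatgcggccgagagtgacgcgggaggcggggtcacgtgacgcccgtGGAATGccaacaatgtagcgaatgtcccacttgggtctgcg

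ANKRD1 had 2 matches, starting 220 and 128 bases before the start of the gene, and CTGF had 3, starting 169, 104 and 95 bases before it. YAP1 had 1 match, 162 bases before the start, and the match of LATS2 began at base 10 of the transcript. The YAP1 window lies 1993 bases from the start of its row and the ANKRD1 window 188 bases. Among all 35116 windows of this length, 14.0% held at least 1 match, 1.37% at least 2 and 0.128% at least 3. A match gives the letters only and does not show that a TEAD protein was bound. The motif TGANTCA of AP-1, a factor that often acts beside TEAD, was in 1 of the 7 windows, that of ANKRD1, against 7.71% of all windows, and does not overlap GGAATG there.

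Counts assigned to genes ran from 417145 to 1893606 in siFLI1 libraries and from 1248395 to 1790051 in siControl libraries, and levels are given as CPM, counts relative to library sizes scaled by the trimmed mean of M values (TMM). The siFLI1 replicate 3 library had the fewest counts, 10.1% of the total in its column header against 41.2% to 61.0% elsewhere, and it stood apart on the first principal component, while siControl replicate 1 stood apart on the third. FLI1, the target of the siRNA, was at 19.0, 42.5 and 24.1 CPM after siFLI1 and at 63.0, 69.1 and 62.4 CPM after siControl, a log2 fold change of -1.16 ± 0.36 (standard error; adjusted p = 0.17 in edgeR's quasi-likelihood test over all genes). The siFLI1 libraries were all under the siControl libraries, and FLI1 did not pass the threshold of 0.05. Of the 7 Ewing sarcoma markers checked, 2 fell (NR0B1 and PRKCB) and 0 rose, where 0.117% of all tested genes were called lower and 1.34% higher, and their summed level was 1092 to 1872 CPM after siFLI1 and 2581 to 3787 CPM after siControl. Immune markers summed to 2.80 to 42.8 CPM after siFLI1 and 4.85 to 11.1 CPM after siControl, with CD3E at 0 throughout and with PTPRC at 16 counts in siFLI1 replicate 3, 6 in siControl replicate 3 and 0 elsewhere. Endothelial markers summed to at most 9.30 CPM after siFLI1 and 9.40 CPM after siControl, and epithelial markers to at most 8.03 and 7.69 CPM, with KRT5 and KRT14 at 0.

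The established targets ANKRD1, CTGF and CYR61 were higher after siFLI1, while the cofactors and TEAD factors themselves did not pass the test in either direction. Of the 10 genes, these 3 rose and 0 fell at an adjusted p below 0.05, where 1.45% of all tested genes were called, 1.34% higher and 0.117% lower. Without adjustment, 5 members had p below 0.05, all of them higher, against 6.62% of all tested genes higher and 4.13% lower. DESeq2 called 5 members higher and 0 lower and limma-voom 3 higher and 0 lower. Over all 9420 tested genes DESeq2 called 183 higher and 34 lower, and limma-voom 131 higher and 15 lower. In 6 of the 10 all siFLI1 libraries lay above all siControl libraries, a property of 8.93% of tested genes, and in 0 did they lie below, as they did in 7.71% of tested genes. The median log2 fold change of the 10 was 0.89, against 0.01 over all tested genes. AXL passed the filter on low counts through its siFLI1 libraries, since only 1 of its siControl libraries reached the filter's level, so its values support none of these counts. Among the 9 other members, 4 had an unadjusted p below 0.05, 5 did not overlap and the median was 0.54. As the members were chosen with earlier results of these data known, these counts only describe them. Summed over the 10, AXL included, the level was 1319, 1280.2 and 1165 CPM in siFLI1 replicates 1, 2 and 3. In siControl replicates 1, 2 and 3 the sum was 562, 415 and 438 CPM. Much of it comes from the 3 called genes, as CYR61, CTGF and ANKRD1 averaged 394, 336 and 217 CPM after siFLI1. After siControl they averaged 109, 137 and 13.2 CPM. In RNA from whole cultures, a change in the share of cells expressing a gene and a change in RNA per cell cannot be told apart.

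**Figure D1:**
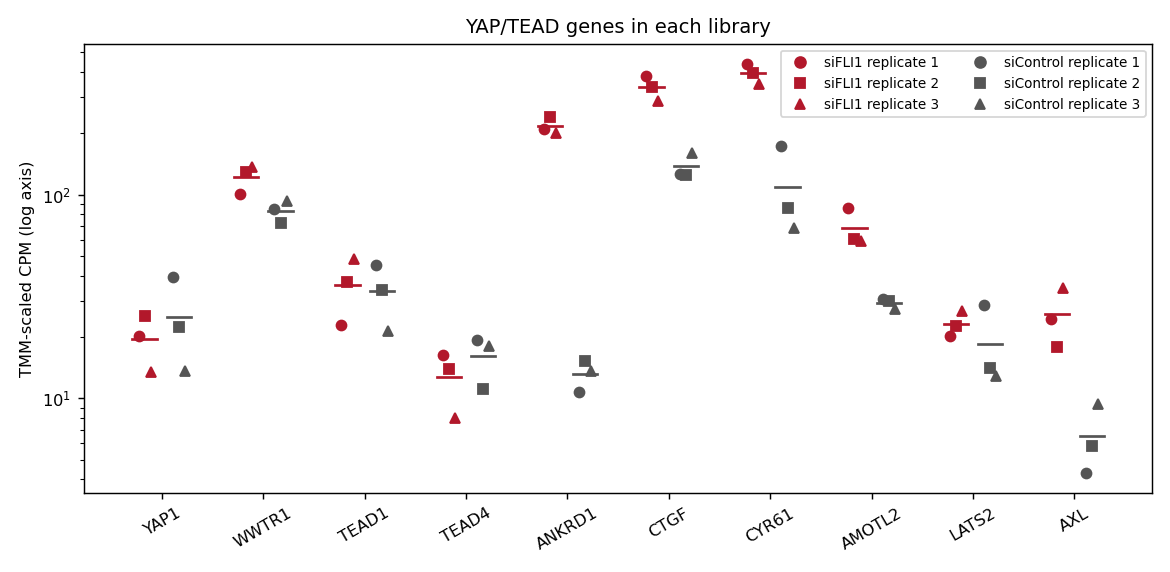
Per-library levels of the 10 YAP/TEAD genes on a logarithmic CPM axis, with siFLI1 in red left of siControl in grey. Symbols are the replicates and bars the means of 3 libraries. ANKRD1 averaged 217 CPM after siFLI1 and 13.2 CPM after siControl with no overlap, while the points of YAP1, TEAD1, TEAD4 and LATS2 overlap between the groups.

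YAP1 (chromosome 11, 102112440 to 102233423, plus strand) was at 20.1, 25.2 and 13.4 CPM after siFLI1, here and later in the order of replicates 1, 2 and 3, and at 39.3, 22.3 and 13.7 CPM after siControl. These levels rest on 36, 38 and 5 counts in siFLI1 and 73, 38 and 16 counts in siControl. The groups overlapped, and the spread within siControl, where replicate 1 was high, exceeded the difference of the means. Those means were 19.6 ± 5.95 CPM after siFLI1 and 25.1 ± 13.1 CPM after siControl (SD, n = 3 each). The log2 fold change was -0.31 ± 0.47 (standard error; 95% interval -1.31 to 0.69; edgeR adjusted p = 0.876; two-sided exact permutation p = 0.6), so levels from 0.403 to 1.61 times the siControl level lie inside the interval. Without siControl replicate 1 the sign turned, to 0.14 (adjusted p = 0.958). These counts thus leave a fall or a rise of YAP1 inside that range possible, and the interval is not a limit of detection.

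WWTR1 (chromosome 3, 149517235 to 149658025, minus strand), the paralog of YAP1, was at 101, 129 and 137 CPM after siFLI1 and at 84.5, 72.6 and 93.2 CPM after siControl. Each siFLI1 library lay above each siControl library. With means of 122 ± 18.6 CPM after siFLI1 and 83.4 ± 10.3 CPM after siControl (SD, n = 3 each), the log2 fold change was 0.54 ± 0.26 (standard error; 95% interval -0.02 to 1.11) and missed the threshold (edgeR adjusted p = 0.495). The exact permutation p of 0.1 is the smallest that 3 against 3 libraries can give, and it was the value for all 6 members whose groups did not overlap. Over 15 alternative settings the log2 fold change of WWTR1 ran from 0.41 to 0.67, with none past the threshold.

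Of the TEAD factors, which carry YAP and TAZ to DNA, TEAD1 (chromosome 11, 12674422 to 12944737, plus strand) was at 22.9, 37.2 and 48.2 CPM after siFLI1 and at 45.2, 34.0 and 21.4 CPM after siControl. The groups overlapped, with a log2 fold change of 0.03 ± 0.41 (standard error; 95% interval -0.84 to 0.90; edgeR adjusted p = 0.99; exact permutation p = 0.7) that turned to -0.12 under scaling by total counts and -0.011 under upper quartile scaling. TEAD4 (chromosome 12, 2959312 to 3040676, plus strand) was at 16.2, 14.0 and 8.03 CPM after siFLI1 and at 19.4, 11.1 and 17.9 CPM after siControl. It rested on few counts, 29, 21 and 3 in siFLI1 and 36, 19 and 21 in siControl, and the groups overlapped (log2 fold change -0.26 ± 0.49, standard error; 95% interval -1.31 to 0.79; edgeR adjusted p = 0.903). TEAD2, a further factor of the family taken from the list of Hippo regulators, averaged 114 ± 29.5 CPM after siFLI1 and 128 ± 12.3 CPM after siControl (SD, n = 3 each; adjusted p = 0.904). TEAD3 did not pass the filter, with 23 counts in siFLI1 and 24 in siControl.

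ANKRD1 (chromosome 10, 90912100 to 90921275, minus strand), an ankyrin repeat protein induced by mechanical load in muscle and a direct YAP/TEAD target, had the largest log2 fold change of the 10. It was at 211, 239.8 and 201 CPM after siFLI1, from 377, 361 and 75 counts, and at 10.8, 15.2 and 13.7 CPM after siControl, from 20, 26 and 16 counts. The lowest siFLI1 library lay far above the highest siControl library, and the spread within each group was small beside the difference. The log2 fold change of 4.04 ± 0.30 (standard error; 95% interval 3.40 to 4.68; edgeR adjusted p = 3.79e-06) equals a 16.4-fold higher level, with an interval of 10.6 to 25.6-fold, and ranked 4 of the 9420 tested genes by p and 17 by log2 fold change. ANKRD1 kept its call in all 15 alternative settings, between 3.87 and 4.16 on the log2 scale, including that without siFLI1 replicate 3 and siControl replicate 1 (3.94).

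CTGF and CYR61 (also named CCN2 and CCN1) encode secreted matricellular proteins that bind integrins and growth factors. CYR61 (chromosome 1, 85580761 to 85583965, plus strand) was at 436, 395 and 351 CPM after siFLI1, from 779, 595 and 131 counts, and at 172, 85.5 and 68.4 CPM after siControl, from 320, 146 and 80 counts. Both groups were separate, with siControl replicate 1 well above the other siControl libraries. The means were 394 ± 42.4 CPM after siFLI1 and 109 ± 55.7 CPM after siControl (SD, n = 3 each), a log2 fold change of 1.85 ± 0.33 (standard error; 95% interval 1.15 to 2.56; edgeR adjusted p = 0.00777). The call was lost without siControl replicate 2 (1.70, adjusted p = 0.102) or siControl replicate 3 (1.61, adjusted p = 0.0676). Without siFLI1 replicate 3 and siControl replicate 1 together the log2 fold change was 2.42 (adjusted p = 3.92e-05).

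CTGF (chromosome 6, 131948177 to 131951378, minus strand) was at 382, 339 and 286 CPM after siFLI1, from 684, 510 and 107 counts, and at 127, 125 and 161 CPM after siControl, from 235, 213 and 188 counts. The groups did not overlap, and the means were 336 ± 48.0 CPM after siFLI1 and 137 ± 20.2 CPM after siControl (SD, n = 3 each). CTGF rose by a log2 fold change of 1.30 ± 0.25 (standard error; 95% interval 0.76 to 1.84; edgeR adjusted p = 0.015), a level 2.46-fold higher. With 1 library left out the log2 fold change stayed between 1.19 and 1.42, yet the call was lost in 5 of those 6 fits. Adjusted p was 0.0985 without siFLI1 replicate 1, 0.115 without siFLI1 replicate 2, 0.0502 without siControl replicate 1, 0.141 without siControl replicate 2 and 0.0602 without siControl replicate 3. Without siFLI1 replicate 3 and siControl replicate 1 together it was 0.00538.

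**Figure D2:**
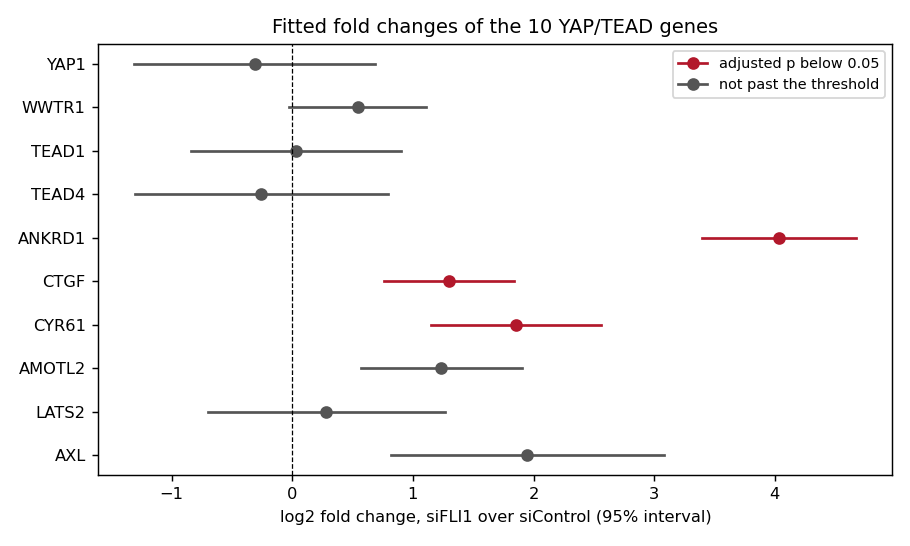
Fitted log2 fold change of siFLI1 over siControl for the 10 YAP/TEAD genes, with 95% intervals for each gene alone and the dashed line at no difference. Red marks ANKRD1 (4.04), CTGF (1.30) and CYR61 (1.85), which passed an adjusted p of 0.05, and grey the other 7, of which AMOTL2 and AXL have intervals above 0.

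AMOTL2 (chromosome 3, 134355345 to 134375417, minus strand), a junctional angiomotin that binds YAP and is also a YAP target, was at 85.5, 60.5 and 58.9 CPM after siFLI1 and at 30.7, 29.9 and 27.3 CPM after siControl. No siFLI1 library reached down to the siControl libraries, which lay close together. The means of 68.3 ± 14.95 CPM after siFLI1 and 29.3 ± 1.74 CPM after siControl (SD, n = 3 each) gave a log2 fold change of 1.23 ± 0.31 (standard error; 95% interval 0.57 to 1.90) that missed the threshold (edgeR adjusted p = 0.0738). AMOTL2 passed in DESeq2 (adjusted p = 0.0491) and in none of the other 14 settings.

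AXL (chromosome 19, 41219199 to 41261767, plus strand), a receptor tyrosine kinase for the ligand GAS6, was at 24.6, 17.9 and 34.8 CPM after siFLI1, from 44, 27 and 13 counts, and at 4.31, 5.86 and 9.40 CPM after siControl, from 8, 10 and 11 counts. The groups did not overlap, on low counts, and the gene was tested through its siFLI1 counts. Its log2 fold change of 1.95 ± 0.53 (standard error; 95% interval 0.82 to 3.08; edgeR adjusted p = 0.105) was larger than that of CYR61 and came with a wider interval, and it passed in DESeq2 alone (adjusted p = 0.037).

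LATS2 (chromosome 13, 20973036 to 21061583, minus strand), the Hippo kinase that is itself a feedback target of YAP, was at 20.1, 22.6 and 26.8 CPM after siFLI1 and at 28.5, 14.1 and 12.8 CPM after siControl. The groups overlapped because siControl replicate 1 lay above all siFLI1 libraries. The log2 fold change was 0.28 ± 0.46 (standard error; 95% interval -0.70 to 1.26; edgeR adjusted p = 0.887; exact permutation p = 0.4) and reached 0.72 without siControl replicate 1. That library held the highest siControl value for 6 of the 10 members, where it did so for 38.3% of all tested genes.

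**Figure D3:**
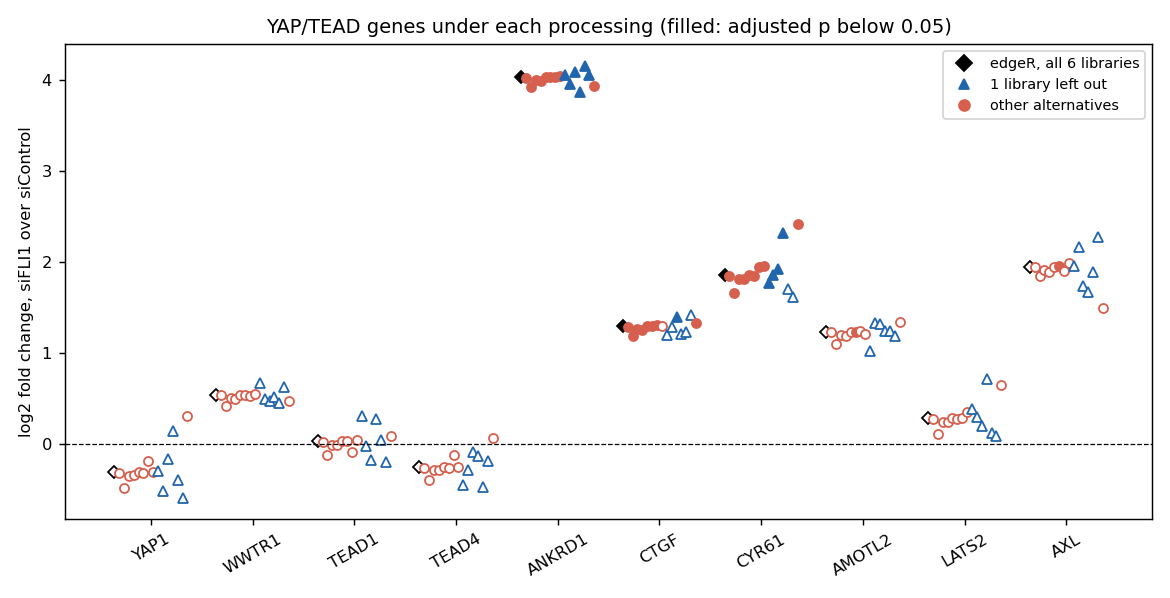
Log2 fold change of each YAP/TEAD gene in the edgeR fit of all 6 libraries (black diamonds), in the 6 fits that leave out 1 library (blue triangles) and under the other 9 alternatives (orange circles), with filled symbols where adjusted p was below 0.05. ANKRD1 is filled throughout, between 3.87 and 4.16, CTGF mostly loses its call when 1 library is left out, and YAP1, TEAD1 and TEAD4 lie on both sides of 0.

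The balance between paralogs was compared within each library, which needs no scaling between libraries. The log2 ratio of CTGF over CYR61 counts was -0.19, -0.22 and -0.29 in siFLI1 and -0.44, 0.54 and 1.23 in siControl. The siFLI1 libraries agreed closely and the siControl libraries did not, so the difference of the means, -0.68, was within the spread of siControl (exact permutation p = 0.4). WWTR1 over YAP1 was at 2.31, 2.34 and 3.23 in siFLI1 and at 1.10, 1.69 and 2.73 in siControl, a difference of 0.78 (exact permutation p = 0.3). TEAD4 over TEAD1 was at -0.49, -1.39 and -2.40 in siFLI1 and at -1.21, -1.58 and -0.25 in siControl, a difference of -0.42 (exact permutation p = 0.5). Over these 3 pairs the Benjamini-Hochberg adjusted p was 0.5 for each, where 0.1 is the smallest unadjusted p possible.

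**Figure D4:**
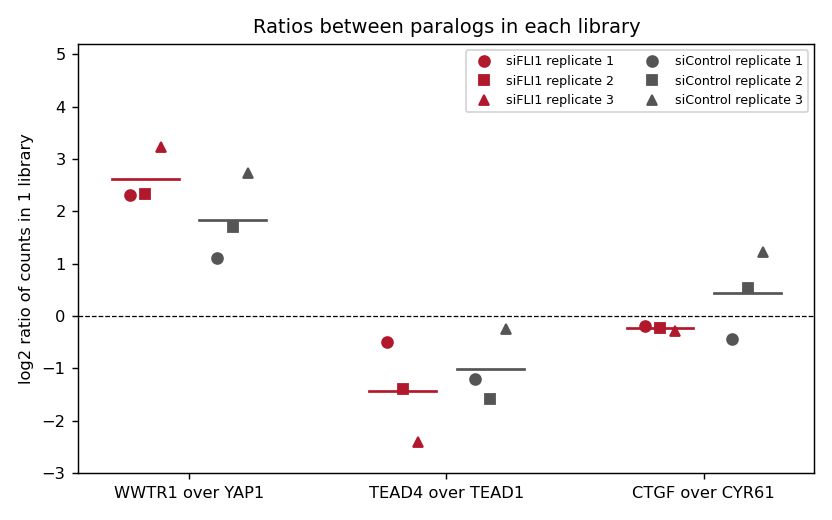
Log2 ratio of the counts of 2 paralogs within each library, with 0.5 added to each count, siFLI1 in red and siControl in grey, symbols for replicates and bars for means of 3 libraries. For CTGF over CYR61 the siFLI1 points lie between -0.29 and -0.19 and the siControl points between -0.44 and 1.23.

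Among other Hippo regulators, FRMD6 rose and most members did not pass the test. FRMD6, a FERM domain protein placed upstream of the Hippo kinases (chromosome 14, 51489121 to 51730726, plus strand), was at 39.7, 70.4 and 96.4 CPM after siFLI1 and at 18.8, 14.1 and 15.4 CPM after siControl. The groups were apart, with a wide spread in siFLI1, and the log2 fold change was 2.04 ± 0.39 (standard error; edgeR adjusted p = 0.0149). That call was lost without siFLI1 replicate 2 (adjusted p = 0.0977), siControl replicate 1 (0.0512), siControl replicate 2 (0.116) or siControl replicate 3 (0.0807). Its row overlaps the antisense genes FRMD6-AS1 and FRMD6-AS2, which had 7 and 4 counts in siFLI1 and 2 and 3 in siControl. Of the 31 listed regulators, 24 passed the filter on low counts, with 1 higher and 0 lower in edgeR, 2 higher and 0 lower in DESeq2 and in limma-voom. Of all 9420 tested genes, edgeR called 1.34% higher and 0.117% lower, DESeq2 183 genes higher and 34 lower, and limma-voom 131 higher and 15 lower. Without adjustment, 3 regulators had p below 0.05, all higher, against 6.62% of all tested genes in that direction and 4.13% in the other. Their median log2 fold change was 0.18, against 0.01 for all tested genes, and 17 of the 24 were above 0, against 50.4% of all tested genes. VGLL3, named after its values were seen, is among the 17 and passed the filter on low counts through its siFLI1 libraries alone. Its value therefore supports none of these figures. Among the 23 other regulators 1 was called higher and 0 lower, 3 were higher at an unadjusted p below 0.05, and the median was 0.14. VGLL1 and VGLL2, TEAD cofactors of other tissues, had 0 counts in every library.

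FAT1, a giant protocadherin, was at 54.8, 73.1 and 64.3 CPM after siFLI1 and at 12.9, 14.6 and 35.0 CPM after siControl, with no overlap and a log2 fold change of 1.65 ± 0.41 (standard error; edgeR adjusted p = 0.0654). FAT1 passed in DESeq2 (0.0173), limma-voom (0.027), with no low-count filter (0.00463) and without siControl replicate 3 (0.0214). PTPN14, a phosphatase that binds YAP, was at 0.83 ± 0.35 on the log2 scale, and the LIM proteins AJUBA and LIMD1, which hold back LATS, were at 0.77 ± 0.37 and 0.94 ± 0.50. MOB1B, a coactivator of LATS, was at -1.01 ± 0.56, from 33 counts in siFLI1 and 85 in siControl, and passed the filter through siControl alone. None of these 4 passed the threshold (edgeR adjusted p from 0.4 to 0.572). The regulators named for their high CPM did not pass, with MOB1A at -0.14 ± 0.32, the kinase TAOK3 at 0.11 ± 0.32 and TEAD2 at -0.14 ± 0.27. Their 95% intervals were -0.83 to 0.55, -0.58 to 0.80 and -0.71 to 0.44 in that order. Each of these regulators changed sign in at least 1 fit that left out a single library.

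Further target genes that the literature ties to YAP and TAZ rose in part. Of 24 listed, 18 passed the filter on low counts, with 7 higher and 0 lower in edgeR, 8 higher and 0 lower in DESeq2, and 6 higher and 0 lower in limma-voom. With no adjustment, 11 of them had p below 0.05 in the higher direction and 1 in the lower. Over all 9420 tested genes the edgeR shares were 1.34% called higher and 0.117% lower, and 6.62% and 4.13% without adjustment. DESeq2 called 183 of them higher and 34 lower, and limma-voom 131 higher and 15 lower. The median log2 fold change of these 18 was 1.35, and 4 of them, TGFB2, F3, GLIS3 and DOCK5, passed the filter through their siFLI1 libraries alone (GLIS3 and DOCK5 are named after their values were seen), so these figures describe the list and support nothing. Among the other 14, 5 were called higher and 0 lower. The list was drawn up with earlier results of these data known and holds genes regulated by many inputs besides YAP.

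TGFB2, a TGF-beta ligand, was at 69.9, 59.1 and 34.8 CPM after siFLI1 and at 2.69, 2.93 and 0 CPM after siControl, from 5, 5 and 0 siControl counts, a log2 fold change of 4.72 ± 0.59 (standard error; edgeR adjusted p = 0.000436). Its row overlaps TGFB2-OT1 on the same strand, which had 174 counts in siFLI1 and 10 in siControl, so reads could be shared between them. TGFBR2, the type II receptor for these ligands, was at 114, 99.0 and 182 CPM after siFLI1 and at 51.2, 53.9 and 43.6 CPM after siControl (log2 fold change 1.37 ± 0.30; adjusted p = 0.0353). Ligand and receptor were both higher, and the TGFBR2 call was lost in each fit without 1 library, with adjusted p from 0.0652 without siFLI1 replicate 2 to 0.178 without siControl replicate 3. IGFBP3, which binds insulin-like growth factors, was at 115, 134 and 88.4 CPM after siFLI1 and at 10.2, 8.78 and 10.3 CPM after siControl (3.54 ± 0.33; adjusted p = 2.74e-05).

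PHLDB2, a cortical protein that anchors microtubules near focal adhesions (chromosome 3, 111859180 to 111976517, plus strand), was at 81.1, 86.4 and 109.8 CPM after siFLI1 and at 15.1, 8.20 and 18.8 CPM after siControl. It rose by 2.71 ± 0.36 on the log2 scale (standard error; edgeR adjusted p = 0.000771) and kept its call in all 15 alternatives. NT5E, the ectonucleotidase CD73, averaged 950.4 ± 128 CPM after siFLI1 and 235 ± 45.4 CPM after siControl (2.02 ± 0.28; adjusted p = 0.000921). Also called was F3, tissue factor, named after its values were seen, at 66.0, 144.8 and 77.6 CPM after siFLI1 and 27.5, 25.8 and 3.42 CPM after siControl (2.31 ± 0.52; adjusted p = 0.0474). The siControl levels of F3 rest on 51, 44 and 4 counts, and its call was not followed over the alternative settings.

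Of the further targets that were not called, GADD45A, a DNA damage response gene and the most abundant of them, averaged 147 ± 55.3 CPM after siFLI1 and 122 ± 20.2 CPM after siControl (SD, n = 3 each; log2 fold change 0.23 ± 0.30, standard error), with the sign turned to -0.077 without siFLI1 replicate 3. DLC1 was at 0.52 ± 0.30 (edgeR adjusted p = 0.594). ASAP1, an Arf GTPase-activating protein, was lower in every siFLI1 library, at 71.0, 82.4 and 96.4 CPM after siFLI1 against 157, 144 and 125.6 CPM after siControl, and did not pass (-0.80 ± 0.26; adjusted p = 0.217). Among markers of fibroblasts and pericytes, which share genes with YAP programmes, COL1A1 rose (1.34 ± 0.25; edgeR adjusted p = 0.0107), PDGFRB and THY1 were at 1.68 ± 0.47 and -0.30 ± 0.32 without passing, and DCN and LUM had 9 and 4 counts in siFLI1 and 2 each in siControl. The 5 markers summed to 639.9 to 883 CPM after siFLI1 and 427 to 688 CPM after siControl, and their part in the levels of the YAP/TEAD genes was not tested.

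**Figure D5:**
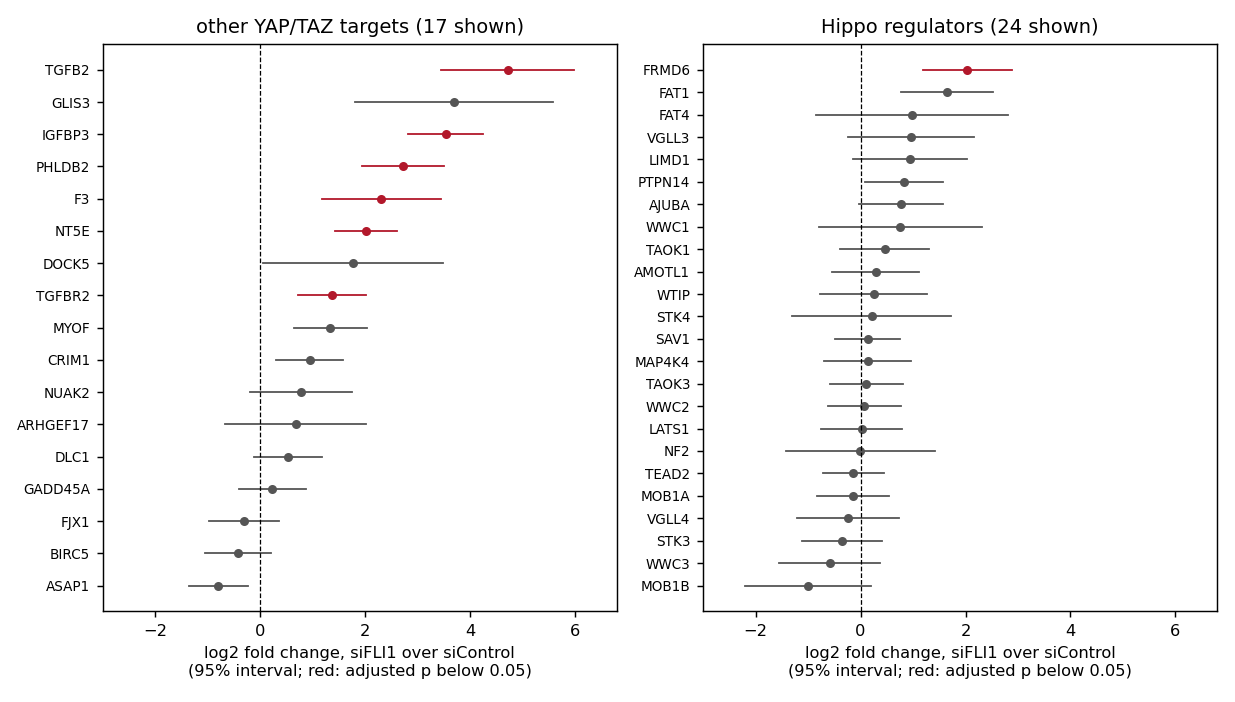
Fitted log2 fold changes of siFLI1 over siControl with 95% intervals for 17 of the 18 further YAP/TAZ targets (left) and the 24 Hippo regulators (right) that passed the filter on low counts, ordered by value, with genes at adjusted p below 0.05 in red. Among the targets shown 6 genes are red, from TGFBR2 at 1.37 to TGFB2 at 4.72, and among the regulators only FRMD6 is, at 2.04.

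The members, the listed regulators and the further targets were left out of the search for the genes nearest to ANKRD1 and to YAP1. Among the remaining tested genes, those whose levels over the 6 libraries ran most like that of ANKRD1 were the laminin chain LAMA4 (Pearson r = 0.999), the collagen chain COL1A2 (r = 0.997) and the ectoenzyme BST1 (also r = 0.997). BST1 averaged 58.3 CPM after siFLI1 and 7.18 CPM after siControl, and COL1A2 1246 and 328 CPM. These values follow the difference between the groups, and 113 genes, with members and listed genes counted, had r above 0.95. For YAP1 the nearest of the remaining genes were TPD52L2 (r = 0.991), PPHLN1 (r = 0.99) and AKR1A1 (r = 0.984), none of which passed the test between the groups. Counted in the same way, 22 genes had r above 0.95. With 6 libraries that differ in depth and 9419 genes compared, such values are a description of these libraries.

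Promoter matches were not confined to genes called higher. ANKRD1 and CTGF, with 2 and 3 GGAATG matches, rose, while YAP1 and LATS2, with 1 each, did not pass the test, and AMOTL2 and AXL, with 0, had log2 fold changes of 1.23 and 1.95. CYR61, which also rose, had no window to search. In the further target list 6 of 16 genes with a window held a match and in the regulator list 6 of 27, against 14.0% of all windows. Of the called genes there, TGFB2 had 1 match and IGFBP3, NT5E, PHLDB2, TGFBR2, F3 and FRMD6 had 0. Only 1 window per gene was searched. WWTR1, AMOTL2, AXL and TGFBR2 had 2 windows each and PHLDB2 had 4, so their other windows may hold matches.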

How the data were processed

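RNA from 3 siFLI1 and 3 siControl transfections of A673 was read at transcript 3' ends by a bulk form of MARS-seq, per the labels' protocols. The authors deposited raw counts per gene over exons, 1 RefSeq transcript a gene, and per the submitters' processing notes the tools were bcl2fastq, HISAT 0.1.5 and HOMER, with the build hg38. The sources used here do not say if UMIs were collapsed or if HOMER counted by strand. Counts may thus include PCR copies, and overlapping genes may share reads. Members were matched by the first symbol of each row. From these counts, levels (TMM-scaled CPM) and tests were computed with edgeR 4.0.16 in R 4.3.3 (filterByExpr with minimum count 10 and total 15, glmQLFit with robust=TRUE, glmQLFTest, group as the 1 term, two-sided, Benjamini-Hochberg over 9420 genes, threshold 0.05). Standard errors and intervals came from the quasi-likelihood F statistic. Alternatives were other scalings and filters, DESeq2 1.42.0, limma-voom (limma 3.58.1), a replicate term, a threshold of 0.01 and leaving out each library, plus, added after seeing the data, a fit with siFLI1 replicate 3 and siControl replicate 1 both left out. No library pair was a duplicate (lowest chi-square over its degrees of freedom within a group 7.48). The members and lists were chosen with earlier results of these data known. Named genes are FLI1, the members, and from each list the 6 smallest p and 3 more of the highest mean CPM. Also named are the 3 genes outside the members and lists most correlated with ANKRD1 and with YAP1. One called gene of the further target list is counted but not reported here. Promoters are RefSeq windows of GRCh38.p14, matched by symbol. The fit was tested on simulated counts.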

Additional observations from a re-analysis of the deposited data

How the results depend on the processing

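Low counts limit YAP1, TEAD4, LATS2 and AXL most, and calls at an adjusted p near 0.05 depend on single libraries. The 137 genes called became 368 with no low-count filter (306 higher, 62 lower, of 18819 tested), 217 in DESeq2, 72 at an adjusted p of 0.01 and 65 to 126 with 1 library left out. Scaling by total counts moved the median of all tested genes to -0.12. Of the 10 YAP/TEAD genes, the 3 called became 5 in DESeq2, with AMOTL2 and AXL, and 1 to 3 with 1 library left out, where the 1 without siControl replicate 2 or siControl replicate 3 was ANKRD1. Regulators called, 1 at first, numbered 2 with no low-count filter, in DESeq2 and in limma-voom, 0 at an adjusted p of 0.01, and 0 to 1 with 1 library left out. Of the further targets 7 became 4 to 6 with 1 library left out. The replicate numbers showed no sign of pairing the libraries (correlations of same-numbered deviations -0.05 to -0.01), which cannot exclude a pairing. A fit with the replicate block called 101 genes over all, 2 of the 10 members (CTGF had an adjusted p of 0.0642), 1 regulator and 6 further targets.

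Log2 fold changes that changed sign were all of genes not called, and the cause was not tested. Over fits without 1 library YAP1 ran from -0.59 to 0.14, TEAD1 from -0.20 to 0.30, TAOK3 from -0.14 to 0.51, TEAD2 from -0.25 to 0.037, MOB1A from -0.45 to 0.10, GADD45A from -0.077 to 0.44, TPD52L2 from -0.62 to 0.26, PPHLN1 from -0.32 to 0.036 and AKR1A1 from -0.25 to 0.067. TEAD1 was also at -0.12 under total counts, -0.011 under upper quartile scaling, -0.017 with no low-count filter and -0.10 in limma-voom. Without siFLI1 replicate 3 and siControl replicate 1 together, YAP1 was at 0.30, TEAD4 at 0.065, TEAD2 at 0.011, GADD45A at -0.17, TPD52L2 at 0.43, PPHLN1 at 0.15 and AKR1A1 at 0.18. The differences in paralog ratio moved with single libraries. CTGF over CYR61, -0.68 with all libraries, ran from -1.12 without siControl replicate 1 to -0.28 without siControl replicate 3. WWTR1 over YAP1, 0.78, ran from 0.41 without siControl replicate 1 to 1.23 without siControl replicate 3, and TEAD4 over TEAD1, -0.42, from -0.88 without siFLI1 replicate 1 to 0.071 without siFLI1 replicate 3. With a prior count of 2 they were -0.67, 0.71 and -0.29 in the same order.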
